A study of Homo sapiens with 9 samples.

Results

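Focal adhesions tie integrins, the cell surface receptors for extracellular matrix, to the actin cytoskeleton. The genes described are 10 focal adhesion adaptors and kinases, namely the integrin activators FERMT1, FERMT2 and TLN1, the ILK complex genes ILK, LIMS1 and PARVA, the kinase PTK2 and the adaptors PXN, VCL and ZYX. They were chosen by gene symbol, 10 of the 21357 genes annotated on the array. All 33 probe sets annotated to these symbols, of 54675 on the array, were taken, and 28 of them reached a minimum level, set at the 40th percentile of an array and required of 2 arrays or more. Of the 28, 26 carry no other gene symbol and 2 are shared by LIMS1 with LIMS4 or with LIMS4 and LIMS3. No gene was lost, since each of the 10 kept at least 1 probe set of its own.

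Talin and the kindlins, the products of TLN1 and the FERMT genes, bind the cytoplasmic tails of integrin beta subunits and switch integrins to their active state. ILK, the LIM protein PINCH1 encoded by LIMS1 and alpha-parvin encoded by PARVA form a complex that links integrins to actin, and ILK is widely regarded as a pseudokinase. PTK2 encodes focal adhesion kinase, paxillin (PXN) is a docking protein for it, vinculin (VCL) strengthens the bond between talin and actin, and zyxin (ZYX) binds actin regulators at adhesions under tension.

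RNA was taken after 48 h from PC3, an established human prostate cancer cell line derived from a bone metastasis, and measured on Affymetrix U133 Plus 2.0 arrays. The 9 arrays comprise 2 of untreated PC3 cells, 2 of PC3 cells cultured with mouse osteoblasts that lack Sost (OB SostKO), 2 with wild type mouse osteoblasts and 100 ng/ml recombinant human DKK1 (OB WT + rhDKK1), and 3 with wild type osteoblasts and 100 ng/ml recombinant human SOST (OB WT + rhSOST). The osteoblasts came from calvaria of neonatal mice (wild type ones C57BL/6J or C57BL/6N, since the study's text names both) and sat on inserts without touching the PC3 cells, and SOST and DKK1 are secreted inhibitors of Wnt signaling. PC3 cells with wild type osteoblasts and no added protein were not analysed here, so the osteoblasts and the added protein cannot be told apart in the last 2 groups. For the same reason, the presence of osteoblasts and their lack of Sost cannot be told apart in OB SostKO. The co-cultures are called SostKO, rhDKK1 and rhSOST from here on and their values given in that order, arrays are named by group and replicate (rhSOST 3), and all 3 comparisons with untreated PC3 cells use the same 2 untreated arrays.

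The epithelial markers KRT8, KRT18, EPCAM and CDH1 and the mesenchymal marker VIM had log2 levels of 11.59 or more on every array. The mean log2 level of 10 osteoblast genes was 5.48 to 5.60 on the untreated arrays and 5.45 to 5.58 on the co-culture arrays, and none of the 6 whose brightest probe set was kept passed the test. RUNX2 read 8.62 to 9.16, COL1A1 8.68 to 9.77 and POSTN 2.95 to 3.10. KLK3, a prostate gene that PC3 cells are known to express little, read 6.71 to 7.34. Preparation and hybridization controls did move with the groups. The mean log2 signal of the 24 poly-A spike-in probe sets was 11.32 ± 0.48 (SD, n = 2) in untreated and 6.65 ± 0.28 (n = 7) in co-cultured cells (two-sided exact permutation p = 0.0278, the smallest that 2 against 7 arrays allow). The difference between the 3′ and 5′ probe sets of ACTB was 0.69 ± 0.27 (n = 2) against 1.38 ± 0.33 (n = 7; exact p = 0.0278), and that of GAPDH was 0.19 ± 0.07 against 0.20 ± 0.10 (exact p = 0.917). The mean of the 9 hybridization control probe sets was 10.77 ± 0.53 (n = 2) against 10.19 ± 0.12 (n = 7; exact p = 0.0278). Any difference between untreated and co-cultured cells therefore cannot be told apart from a difference in sample preparation or hybridization. Among the co-cultures, rhSOST 3 was the lowest or highest array for 48.2% of all kept probe sets and SostKO 1 for 44.3%, against 18.9% to 24.3% for the other 5 arrays.

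The data showed a lower level of one FERMT2 probe set in all co-cultures, while most probe sets of the 10 genes differed by less than the test could resolve. One of 28 member probe sets passed an adjusted p under 0.05 in each comparison with untreated PC3 cells, each time 209209_s_at of FERMT2 and each time lower. Over all 33970 kept probe sets, 0.718% were lower with SostKO, 0.721% with rhDKK1 and 1.32% with rhSOST, and 0.518% were lower in all 3. The shares that were higher were 0.901%, 1.03% and 2.66%, and no member was among them. A count of 1 of 28 (3.57%) does not set the members apart from all probe sets. The median log2 fold change of the members was -0.06, -0.04 and -0.02, against -0.0005, -0.003 and 0.01 over all probe sets.

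FERMT2 encodes kindlin-2, the kindlin found in most tissues, and lies on chromosome 14 at 52857273 to 52951050 on the minus strand (GRCh38.p14). Its probe set 209209_s_at had log2 levels of 10.26 and 10.21 in untreated cells, 9.57 and 9.61 with SostKO, 9.73 and 9.60 with rhDKK1, and 9.46, 9.65 and 9.67 with rhSOST. The 7 co-culture arrays lie below both untreated arrays and close to each other. Relative to untreated cells the level fell by 0.64 on the log2 scale with SostKO (SE 0.10, 1.56-fold; limma, Benjamini-Hochberg adjusted p = 0.0275), by 0.57 with rhDKK1 (SE 0.10, 1.49-fold; limma adjusted p = 0.0340) and by 0.64 with rhSOST (SE 0.09, 1.56-fold; limma adjusted p = 0.0123). Calls over all kept probe sets were 1.62%, 1.75% and 3.99% with 9 arrays. They were 0.483%, 0.533% and 0.624% without rhSOST 2 and 4.34%, 4.01% and 4.89% without rhSOST 3. The calls of FERMT2 209209_s_at also depended on which arrays were fitted. The log2 fold change stayed between -0.50 and -0.68, but the SostKO and rhDKK1 calls were lost in 7 of 9 fits that left out 1 array (all except rhSOST 1 and rhSOST 3), with limma adjusted p from 0.0590 to 0.146 and from 0.0548 to 0.216. The rhSOST call was lost without untreated 1, untreated 2 or rhSOST 2 (limma adjusted p of 0.0971, 0.0525 and 0.0501), and all 3 calls stood without rhSOST 3 (limma adjusted p = 0.0181, 0.0260 and 0.0146). Where 1 probe set or the mean stood for each gene, no member passed in any comparison.

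The other FERMT2 probe sets did not pass the test. The brightest, 209210_s_at, read 12.06 and 11.99 in untreated cells, 11.69 and 11.74 with SostKO, 11.72 and 11.70 with rhDKK1, and 11.66, 11.86 and 11.65 with rhSOST. Its arrays did not overlap either, and its log2 fold changes were -0.32, -0.32 and -0.31 (SE 0.09, 0.09 and 0.08; limma adjusted p = 0.130, 0.126 and 0.0879). The remaining one, 214212_x_at, scattered widely, from 9.56 and 10.28 in untreated cells to 8.0 on rhSOST 3, with log2 fold changes of 0.15, 0.08 and -0.70 (SE 0.58, 0.58 and 0.53). Its sign in the first 2 turned when untreated 1 was left out.

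The promoter of FERMT2 is printed because FERMT2 is the member that passed the test, as the 250 bases before the gene's start from RefSeq (GRCh38.p14, chr14:52951051-52951300, minus strand, read along the gene), with GC boxes (GGGCGG on either strand, bound by SP1 family factors) in capitals.
FERMT2: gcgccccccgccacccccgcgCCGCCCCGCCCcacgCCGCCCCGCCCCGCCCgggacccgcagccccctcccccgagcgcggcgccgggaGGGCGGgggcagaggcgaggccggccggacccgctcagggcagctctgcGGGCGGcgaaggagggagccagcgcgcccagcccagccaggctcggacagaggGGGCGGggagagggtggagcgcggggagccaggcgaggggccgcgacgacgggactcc
The window holds 8 GC boxes, some sharing bases, and is 84.4% G or C, and 42.6% of the 35116 RefSeq promoter windows of this length hold at least 1 GC box.

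FERMT1 encodes kindlin-1, the epithelial kindlin, and lies on chromosome 20 at 6074845 to 6123030. A pair of its probe sets was lower in the co-cultures without passing the test, and another varied the other way on most arrays. Probe set 218796_at read 11.61 and 11.42 in untreated cells, 11.27 and 11.12 with SostKO, 11.15 and 11.27 with rhDKK1, and 11.21, 11.24 and 10.88 with rhSOST. Probe set 60474_at read 11.19 and 11.04 in untreated cells, 10.65 and 10.83 with SostKO, 10.82 and 10.81 with rhDKK1, and 10.82, 10.82 and 10.56 with rhSOST. In both, the 7 co-culture arrays lie below both untreated arrays. The log2 fold changes were -0.32, -0.30 and -0.41 for 218796_at (SE 0.14, 0.14 and 0.13) and -0.38, -0.30 and -0.38 for 60474_at (SE 0.12, 0.12 and 0.11), and the smallest limma adjusted p was 0.0969. Probe set 229545_at read 8.57 and 9.48 in untreated cells, 10.08 and 10.15 with SostKO, 9.92 and 9.92 with rhDKK1, and 9.96, 9.56 and 7.84 with rhSOST. Here 6 of 7 co-culture arrays lie above both untreated arrays and rhSOST 3 lies below them. Its log2 fold changes of 1.09, 0.90 and 0.10 (SE 0.61, 0.61 and 0.56) were the largest rises among the members with the first 2 co-cultures, yet the limma adjusted p was 0.376, 0.463 and 0.946. The fourth probe set, 232479_at, reached the minimum on 0 arrays.

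**Figure D1:**
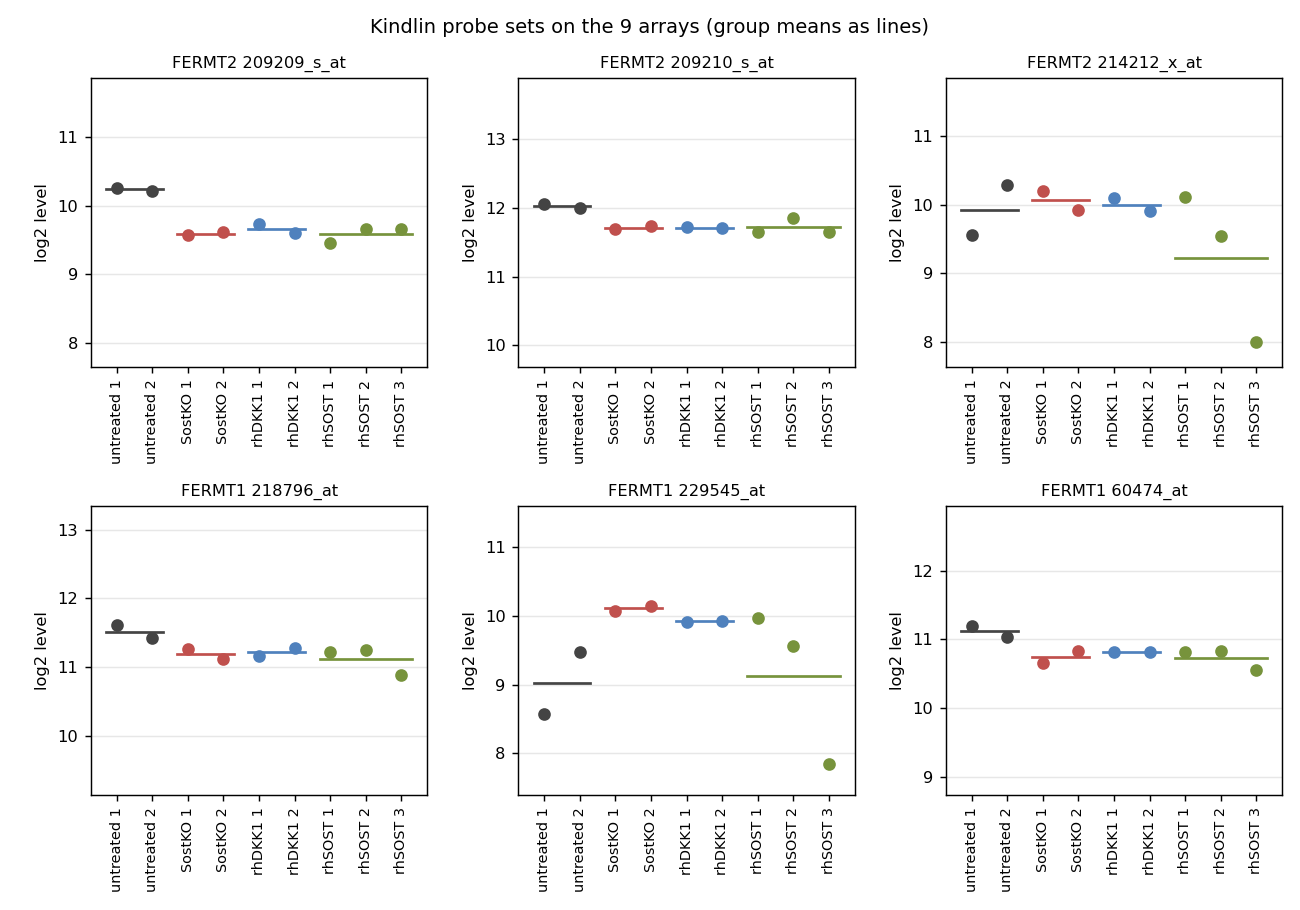
Log2 level (y axis) of the 3 kept probe sets of FERMT2 and of FERMT1 on each of the 9 arrays (x axis), each point 1 array and each line a group mean, with the same height of y axis in every panel. FERMT2 209209_s_at and 209210_s_at and FERMT1 218796_at and 60474_at sit lower on all 7 co-culture arrays than on both untreated arrays, while FERMT2 214212_x_at and FERMT1 229545_at drop on rhSOST 3 to 8.0 and 7.84.

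TLN1 encodes talin-1 and lies on chromosome 9 at 35696948 to 35732195. Its probe set 203254_s_at read 7.23 and 7.11 in untreated cells, 6.37 and 7.13 with SostKO, 7.50 and 6.74 with rhDKK1, and 7.20, 6.99 and 7.67 with rhSOST. Each co-culture had an array below both untreated arrays, rhDKK1 and rhSOST also had one above both, and the log2 fold changes were -0.42, -0.04 and 0.12 (SE 0.33, 0.33 and 0.30; limma adjusted p = 0.523, 0.956 and 0.869). The other probe sets, 232763_at and 236132_at, differed by -0.18 to -0.07 on the log2 scale and did not pass (smallest limma adjusted p 0.303).

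ILK, on chromosome 11 at 6603774 to 6610870, has a single probe set, 201234_at. It read 10.46 and 10.46 in untreated cells, 9.74 and 10.09 with SostKO, 10.07 and 9.74 with rhDKK1, and 10.06, 9.89 and 10.39 with rhSOST. All co-culture arrays lie below the untreated ones, rhSOST 3 by the least. The log2 fold changes were -0.55, -0.56 and -0.35 (SE 0.19, 0.19 and 0.17), and the test was not passed (limma adjusted p = 0.180, 0.172 and 0.299).

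PARVA, on chromosome 11 at 12376436 to 12535356, has 7 probe sets, of which 6 were kept. Probe set 213675_at was the only member whose 7 co-culture arrays all lay above both untreated arrays, at 6.23 and 6.35 in untreated cells, 6.58 and 6.66 with SostKO, 6.48 and 6.43 with rhDKK1, and 6.55, 6.70 and 6.61 with rhSOST. The log2 fold changes were 0.33, 0.16 and 0.33 (SE 0.09, 0.09 and 0.08; limma adjusted p = 0.105, 0.350 and 0.0616). The brightest PARVA probe set, 217890_s_at, differed by 0.01, 0.12 and 0.08 (SE 0.09, 0.09 and 0.08). The other 4 kept ones (222454_s_at, 222455_s_at, 235279_at and 1563458_at) had log2 fold changes from -0.22 to 0.35 and limma adjusted p of 0.279 or more, and 215418_at reached the minimum on 0 arrays.

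LIMS1, on chromosome 2 at 108533671 to 108687246, is read here mainly by probe sets it shares. Probe set 212687_at, shared with LIMS4 and LIMS3, read 10.80 to 11.05 on all 9 arrays with log2 fold changes of 0.03, 0.04 and -0.004 (SE 0.09, 0.09 and 0.09). Probe set 207198_s_at, shared with LIMS4, read 10.58 to 10.96 on 8 arrays and 9.42 on rhSOST 3. Its log2 fold changes were 0.13, 0.07 and -0.48 (SE 0.40, 0.40 and 0.37). LIMS1's own 1566127_at, at 4.57 to 5.12, did not pass, and 1566129_at and 1570259_at reached it on 0 arrays. Signals of the shared probe sets cannot be split between these near-identical genes.

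PTK2, on chromosome 8 at 140657900 to 141002079, was reported differently by its 4 probe sets. Probe set 207821_s_at read 9.75 and 9.58 in untreated cells, 8.83 and 9.17 with SostKO, 9.28 and 9.15 with rhDKK1, and 9.02, 9.18 and 9.59 with rhSOST. Only rhSOST 3 reached the untreated arrays. The log2 fold changes were -0.66, -0.45 and -0.40 (SE 0.19, 0.19 and 0.17; limma adjusted p = 0.124, 0.251 and 0.238), and the SostKO difference passed when rhSOST 3 was left out (-0.66, limma adjusted p = 0.0405, with 4.34% of all probe sets called either way in that fit against 1.62% with 9 arrays). The brightest probe set, 208820_at, stayed at 11.12 to 11.49 on all arrays, with log2 fold changes of -0.08, 0.01 and 0.08 (SE 0.10, 0.10 and 0.09). Probe sets 241453_at and 1559529_at had values of 0.05 to 0.22 and did not pass.

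The paxillin probe set 201087_at (PXN, chromosome 12 at 120210447 to 120265730) stayed at 11.21 to 11.62, with log2 fold changes of -0.10, -0.12 and 0.03 (SE 0.12, 0.12 and 0.11). Probe set 211823_s_at had 0.17, 0.08 and -0.12 (SE 0.20, 0.20 and 0.18). The vinculin probe set 200931_s_at (VCL, chromosome 10 at 73998116 to 74121363) stayed at 12.69 to 12.94, with log2 fold changes of 0.02, 0.09 and 0.15 (SE 0.09, 0.09 and 0.08), and its second, 200930_s_at, reached the minimum on 0 arrays. None of the kept probe sets of PXN or VCL passed (smallest limma adjusted p 0.356).

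ZYX, on chromosome 7 at 143381345 to 143391111, had 2 probe sets that varied together from array to array. Probe set 200808_s_at read 9.50 and 9.75 in untreated cells, 8.49 and 9.48 with SostKO, 9.67 and 8.63 with rhDKK1, and 9.62, 9.02 and 10.03 with rhSOST. Probe set 215706_x_at read 9.64 and 9.83, 8.93 and 9.77, 9.86 and 8.97, and 9.90, 9.22 and 10.11 in the same order. One array of each co-culture was low and the others were near the untreated level or above it. The log2 fold changes of 200808_s_at were -0.64, -0.47 and -0.07 (SE 0.45, 0.45 and 0.41; limma adjusted p = 0.476, 0.597 and 0.949), and those of 215706_x_at were -0.39, -0.32 and 0.002 (SE 0.39, 0.39 and 0.36).

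**Figure D2:**
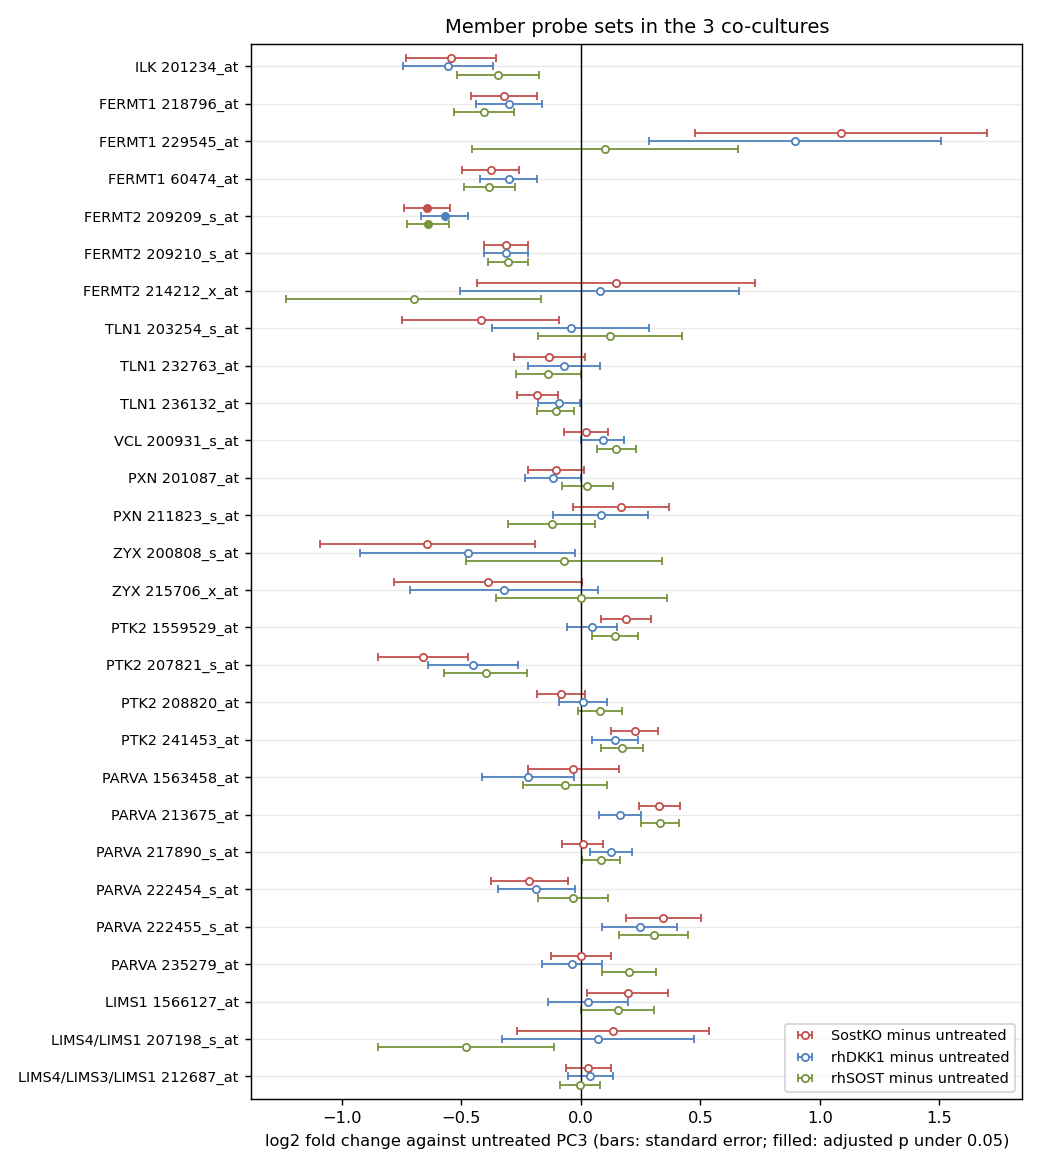
Log2 fold change against untreated PC3 cells (x axis) of the 28 kept probe sets of the 10 genes (y axis) in SostKO (red), rhDKK1 (blue) and rhSOST (green), with the standard error of the limma fit as bars and filled points where the adjusted p was under 0.05. Filled points occur for FERMT2 209209_s_at alone, at -0.64, -0.57 and -0.64.

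Counted over the list, 5 of 28 member probe sets (17.9%) had all 7 co-culture arrays below both untreated arrays, namely ILK 201234_at, FERMT2 209209_s_at and 209210_s_at and FERMT1 218796_at and 60474_at, against 10.6% of all kept probe sets. One (3.57%), PARVA 213675_at, had all of them above, against 13.1%. An unadjusted p under 0.05 was reached by 8 members with SostKO (6 lower, 2 higher), 5 with rhDKK1 (all lower) and 6 with rhSOST (5 lower, 1 higher). The same was reached by 18.9%, 19% and 20.9% of all probe sets, against 28.6%, 17.9% and 21.4% of the members.

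Between co-cultures, no member passed, and neither did any other of the 33970 probe sets in limma (0% in each of the 3 comparisons). An unadjusted p under 0.05 was reached by 0 members in each, and by 1165, 791 and 290 of all probe sets for SostKO against rhSOST, rhDKK1 against rhSOST and SostKO against rhDKK1. For FERMT2 209209_s_at the differences were narrow, at -0.002 (95% interval -0.21 to 0.20), 0.07 (-0.13 to 0.27) and -0.07 (-0.30 to 0.15) on the log2 scale. For ZYX 200808_s_at they were wide, at -0.57 (-1.52 to 0.37), -0.40 (-1.35 to 0.54) and -0.17 (-1.21 to 0.87), so that a level more than 2-fold lower lay within each of these intervals. For FERMT1 229545_at, SostKO lay 0.99 above rhSOST (-0.30 to 2.28), with rhSOST 3 at 7.84 against 9.56 and 9.96 on the other rhSOST arrays.

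Probe sets of one gene were then compared with each other, as the difference between each probe set and the brightest kept one of its gene on the same array. A change of equal log2 size in both drops out, whereas a shared change that the 2 probe sets read at different sizes does not. Of the 10 genes, 7 have such differences, 16 in all, and none passed for the mean of the 3 co-cultures against untreated cells (2.54% of 13381 differences over 7407 genes passed) or for the co-cultures singly (0.00747% with SostKO, 0.0149% with rhDKK1 and 1.05% with rhSOST). At an unadjusted p under 0.05, 3 of the 16 differed for the mean of the co-cultures, as did 21.6% of all. PTK2 207821_s_at minus 208820_at was -1.59 and -1.74 in untreated cells, -2.29 and -2.20 with SostKO, -2.11 and -2.14 with rhDKK1, and -2.35, -2.19 and -1.90 with rhSOST. The arrays did not overlap, and the difference fell by 0.51 (SE 0.12; limma adjusted p = 0.0735). FERMT2 209209_s_at minus 209210_s_at was -1.80 and -1.79, -2.12 and -2.12, -1.99 and -2.11, and -2.19, -2.20 and -1.99 in the same order, and fell by 0.31 (SE 0.09; limma adjusted p = 0.108).

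These differences also turned on 1 array. Without rhSOST 3, the differences of PTK2 207821_s_at (-0.55, SE 0.09; limma adjusted p = 0.0177), FERMT1 229545_at minus 218796_at (1.21, SE 0.27; limma adjusted p = 0.0353) and FERMT2 209209_s_at (-0.33, SE 0.08; limma adjusted p = 0.0462) passed, where 9.26% of all differences did. With all arrays the FERMT1 difference was 1.04 (SE 0.45; limma adjusted p = 0.236), at -3.04 and -1.95 in untreated cells and -3.03 on rhSOST 3 against -1.68 to -0.97 on the other 6 co-culture arrays. The 2 probe sets of ZYX differed by less, -0.16 (SE 0.09; limma adjusted p = 0.356), although each of them varied by over 1 log2 unit between arrays. The positions of the probe sets within the genes were not used here, so these differences are not assigned to isoforms.

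**Figure D3:**
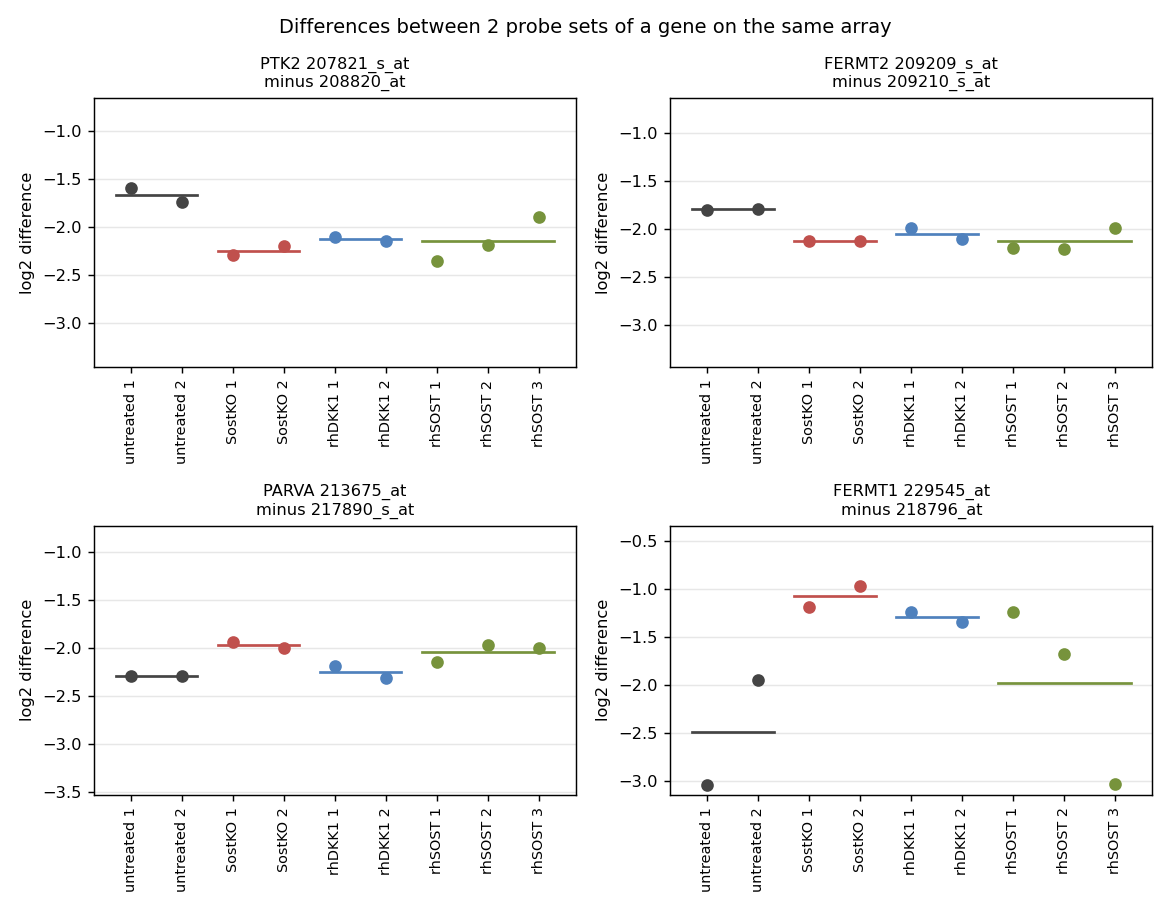
Log2 difference (y axis) between a probe set and the brightest probe set of its gene on the same array, for 4 pairs of PTK2, FERMT2, FERMT1 and PARVA on the 9 arrays (x axis), each point 1 array and each line a group mean. PTK2 and FERMT2 are lower on all 7 co-culture arrays, and the FERMT1 difference on rhSOST 3 (-3.03) is back at the level of untreated 1 (-3.04).

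Arrays of one group differed in a way that several members shared, a pattern singled out after the values were seen. SostKO 1, rhDKK1 2 and rhSOST 2 were the 3 lowest of all 9 arrays for 5 of 28 members (17.9%), both ZYX probe sets, ILK 201234_at, TLN1 203254_s_at and PARVA 222454_s_at, against 4.66% of all kept probe sets. Their numbers and groups differ. The 3′ minus 5′ difference of ACTB was 1.32, 0.99 and 1.44 on these 3 arrays, against 1.19 to 2.06 on the other 4 co-culture arrays. The mean log2 signal of the poly-A spike-in probe sets was 6.41, 6.38 and 7.22, against 6.55 to 6.71 on the other 4. The part of these controls in the pattern was not tested. The spread within groups of ZYX 200808_s_at (SD 0.56) exceeded that of 98.8% of all kept probe sets, and that of TLN1 203254_s_at (SD 0.41) exceeded 96.9%. PARVA 222454_s_at read 8.39 and 8.53 in untreated cells, 8.07 and 8.41 with SostKO, 8.38 and 8.16 with rhDKK1, and 8.35, 8.28 and 8.64 with rhSOST, while PARVA 217890_s_at did not follow this order.

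A second array stood out as well. On rhSOST 3, 21 of 28 members (75%) were at the lowest or highest of the 7 co-culture arrays (10 lowest and 11 highest), against 48.2% of all kept probe sets. The low ones included FERMT1 229545_at, FERMT2 214212_x_at and LIMS1 207198_s_at, with SDs within groups of 0.77, 0.73 and 0.50 that exceeded those of 99.6%, 99.5% and 98.3% of all kept probe sets. In each of these 3 probe sets, untreated 1 lay below untreated 2. The GAPDH 3′ minus 5′ difference was 0.42 on rhSOST 3 and 0.12 to 0.24 on the other arrays, and its part in these values was not tested.

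**Figure D4:**
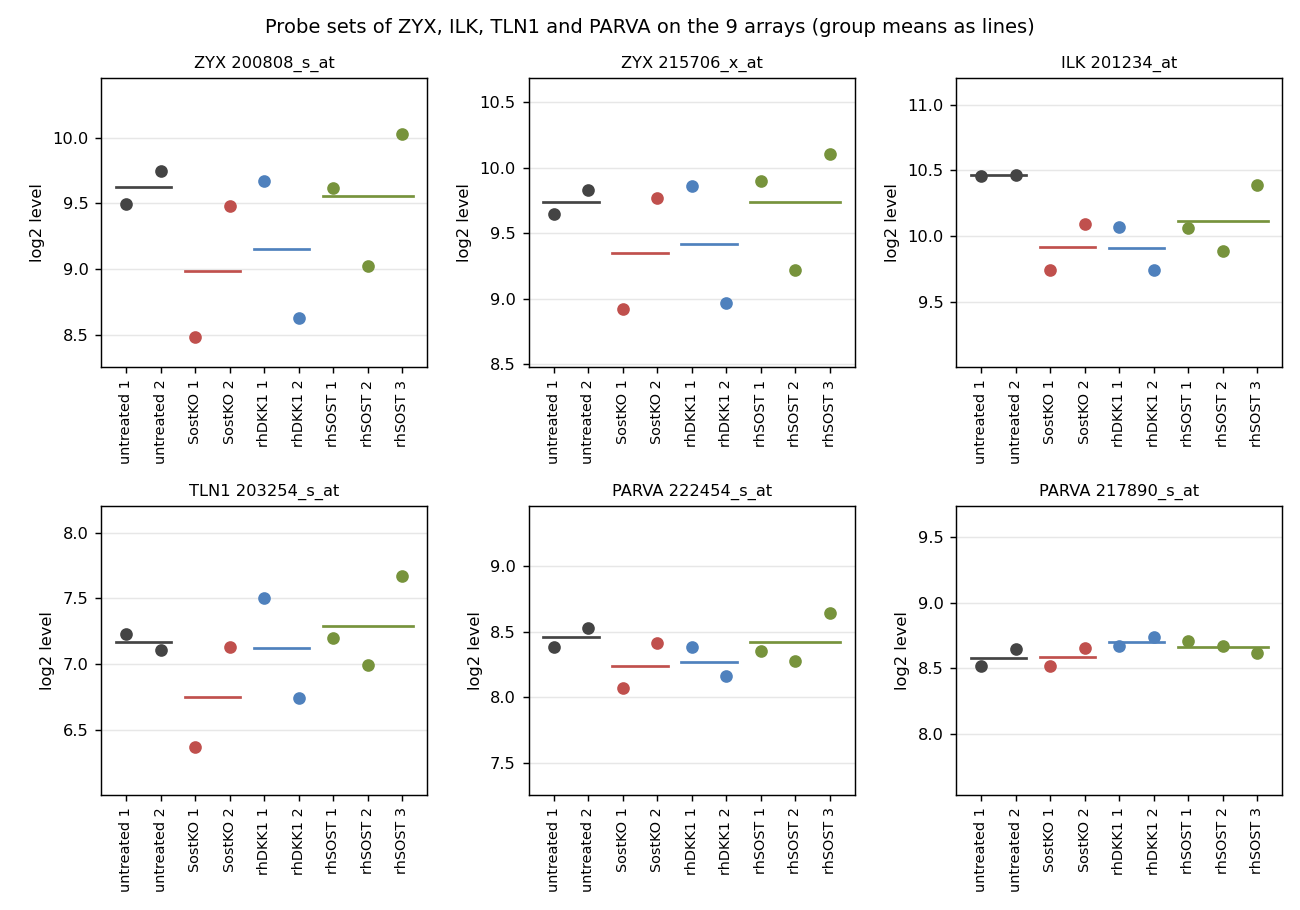
Log2 level (y axis) of the 2 ZYX probe sets, ILK 201234_at, TLN1 203254_s_at and 2 PARVA probe sets on the 9 arrays (x axis), each point 1 array and each line a group mean, with the same height of y axis in every panel. SostKO 1, rhDKK1 2 and rhSOST 2 are the 3 lowest arrays in all panels except PARVA 217890_s_at, which stays at 8.51 to 8.74.

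The promoters of ZYX, ILK and TLN1 are printed because these members were lowest on the same 3 arrays (RefSeq, GRCh38.p14, 250 bases before the start, read along the gene, GC boxes in capitals). ZYX lies at chr7:143381095-143381344 on the plus strand, ILK at chr11:6603524-6603773 on the plus strand and TLN1 at chr9:35732196-35732445 on the minus strand.
ZYX: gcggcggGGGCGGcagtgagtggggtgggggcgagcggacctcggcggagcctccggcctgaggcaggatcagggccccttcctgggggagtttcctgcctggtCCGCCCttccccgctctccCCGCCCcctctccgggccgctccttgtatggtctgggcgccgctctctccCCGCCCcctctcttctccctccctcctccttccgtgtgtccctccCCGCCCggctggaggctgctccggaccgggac
ILK: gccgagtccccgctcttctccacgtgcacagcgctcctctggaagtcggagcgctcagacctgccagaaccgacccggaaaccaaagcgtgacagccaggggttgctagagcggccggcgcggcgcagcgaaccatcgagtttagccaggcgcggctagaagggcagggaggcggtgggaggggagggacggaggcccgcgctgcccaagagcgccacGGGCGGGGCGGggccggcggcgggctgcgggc
TLN1: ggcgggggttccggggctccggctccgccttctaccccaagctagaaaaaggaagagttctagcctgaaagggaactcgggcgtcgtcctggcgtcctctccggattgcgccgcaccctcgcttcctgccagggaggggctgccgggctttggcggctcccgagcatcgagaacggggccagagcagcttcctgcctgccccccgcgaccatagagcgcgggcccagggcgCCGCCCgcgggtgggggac
They hold 5, 2 and 1 GC boxes, and the 2 of ILK share bases. Of the 10 genes, 7 have a promoter window in the table used, 11 windows in all. None of the 11 holds a CArG box, the site of serum response factor (1.16% of all windows hold one on either strand). The TEAD motif GGAATG on either strand is in the VCL window and in 1 of 2 PXN windows (11.9% of all), the AP-1 motif TGANTCA in 1 of 4 LIMS1 windows (6.57% of all) and the E-box CACGTG in the ILK window (6.34% of all).

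Among paralogs of the members 4.35%, 4.35% and 8.7% of kept probe sets were called either way, and among partners 0.893%, 0.893% and 1.79%, against 1.62%, 1.75% and 3.99% of all. With 23 and 112 probe sets these shares are 1 or 2 calls each, each of a single probe set of its gene. Of 10 paralogous genes with 23 kept probe sets, TRIP6, a zyxin family protein, rose with SostKO and rhSOST, with log2 fold changes of 0.50, 0.39 and 0.48 (limma adjusted p = 0.0370, 0.0643 and 0.0198). LPXN, a relative of paxillin that read 10.34 and 10.31 in untreated cells, fell with rhDKK1 and rhSOST, with -0.44, -0.51 and -0.52 (limma adjusted p = 0.0523, 0.0329 and 0.0170). PTK2B, PARVB and LPP, which were among the 4 genes with the smallest p in at least 1 comparison, did not pass (limma adjusted p of 0.127 or more). The median log2 fold change of the paralogs was -0.04, 0.005 and -0.01, and that of the partners -0.03, -0.02 and 0.01. Of 40 partner genes with 112 kept probe sets, the tensin TNS1 rose in all 3 co-cultures by 1 probe set. Its rise was 0.62, 0.73 and 0.74 on the log2 scale (limma adjusted p = 0.0370, 0.0213 and 0.0107) from a low level, 4.51 and 4.78 in untreated cells. The other kept TNS1 probe sets had log2 fold changes from -0.26 to 0.23 and did not pass (smallest limma adjusted p 0.191). DOCK1, an activator of the GTPase Rac, rose with rhSOST by 0.72 by 1 probe set (limma adjusted p = 0.0244). That probe set also had a low level, 4.84 and 5.24 in untreated cells. The other kept DOCK1 probe sets had log2 fold changes from -0.10 to 0.14 over the 3 co-cultures and did not pass (limma adjusted p of 0.507 or more). PPFIA1, TES, VASP, KANK2 and PDLIM5, chosen in the same way, did not pass (limma adjusted p of 0.0601 or more).

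Among 16 kept integrin genes with 35 probe sets, 0 passed with SostKO or rhDKK1 in limma (6 and 8 probe sets at an unadjusted p under 0.05, which 18.9% and 19% of all kept probe sets reached). The share called with rhSOST was 5.71%, against 3.99% of all. With rhSOST, ITGA2, the alpha chain of a collagen receptor, fell by 0.77 (limma adjusted p = 0.0284) and ITGB2 rose by 0.49 (limma adjusted p = 0.0426). ITGA2 had -0.74 and -0.58 with the other co-cultures (limma adjusted p = 0.0618 and 0.104). ITGAV, ITGA7 and ITGB4, chosen in the same way, did not pass (limma adjusted p of 0.0788 or more). The median integrin log2 fold change was -0.06, -0.09 and -0.08.

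Of 11 kept target genes of SRF and YAP, transcriptional regulators that respond to actin and adhesion, with 23 probe sets, CCN2 and CCN1, both secreted matricellular proteins, fell in all 3 co-cultures. CCN2 read 10.32 and 10.33 in untreated cells and 9.58 to 9.76 in co-cultures, with log2 fold changes of -0.62, -0.63 and -0.65 (limma adjusted p = 0.0202, 0.0189 and 0.00771). CCN1 had -0.75, -0.64 and -0.78 (limma adjusted p = 0.0344, 0.0464 and 0.0139) by 1 probe set, while another of its probe sets had -0.29, -0.28 and -0.31 and did not pass (limma adjusted p = 0.116, 0.116 and 0.0556). TPM1, a tropomyosin, fell with SostKO by 0.62 and with rhSOST by 0.47 (limma adjusted p = 0.0355 and 0.0363). TAGLN, an actin binding protein, rose in all 3, by 0.71, 0.70 and 0.68 (limma adjusted p = 0.0220, 0.0204 and 0.0111). The median of these targets was -0.22, -0.13 and -0.08. Of their 23 probe sets, 17.4%, 13% and 17.4% were called either way, against 1.62%, 1.75% and 3.99% of all. This list was chosen with earlier results of these data known. In these 4 lists, all 21 calls against untreated cells were lost when untreated 1 was left out and 16 when untreated 2 was, with 0 changes of sign, and over all kept probe sets the calls without untreated 1 numbered 41, 53 and 96 against 550, 595 and 1355. Without rhSOST 2, 18 of the 21 were lost, 14 without either rhDKK1 array, and 9 without either SostKO array or rhSOST 1.

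The genes whose levels were most like those of FERMT2 209209_s_at over the 9 arrays were RANGAP1 (Pearson r 0.99), CYREN (0.99), HIGD1A (0.99), ADORA2B (0.99) and DR1 (0.99), a description over arrays that share 2 untreated samples at one end.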

How the data were processed

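Total RNA of PC3 cells was measured on 9 arrays in 4 groups, taken from the sample labels, which call arrays of a group biological replicates. Whether they came from separate osteoblast preparations is not given in the sources used here, so p-values measure the spread between these arrays. The authors deposited log2 values, made with RMA per the labels, and the software is not given in the sources used here. RMA brings the probe signals of all arrays to one distribution. The deposited probe set values had array medians of 5.45 to 5.52. The number of arrays limits the precision.

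Probe sets were named from GEO's platform annotation, with symbols updated by gene identifier to RefSeq (GRCh38.p14). After removal of 62 controls, 33970 of 54675 probe sets passed the filter (2 or more arrays at or above the 40th percentile of that array). All were fitted in 1 model with 4 group means (limma 3.58.1, R 4.3.3; lmFit, eBayes; 8.00 degrees of freedom), with Benjamini-Hochberg adjustment over all of them and calls at an adjusted p under 0.05. Probe sets were kept apart. Their levels depend on the probes too, so the brightest probe set of a gene, by its mean over all arrays, served only as a reference, and no order of transcript levels was drawn from different probe sets. Differences between probe sets of a gene were fitted in the same way. Controls were tested by exact permutation. The scripts were tested on simulated data.

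The members and gene lists were chosen with earlier results of these data known. From each list, the genes called are named or, where fewer than 4 were called, those with the smallest p. Some marker genes are not reported here. Replicate numbers were not used as pairs in the main fit. Correlations of same-numbered deviations ranged from -0.54 to 0.43. In groups of 2 arrays the deviations mirror each other, so these correlations cannot exclude a pairing. Alternatives were other filters, normalization, gene summaries, tests and thresholds, a replicate block, array weights and leaving out each array. Array 1 of SostKO and array 3 of rhSOST were also left out together, chosen after seeing the data.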

Additional observations from a re-analysis of the deposited data

How the results depend on the processing

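The number of member probe sets called against untreated cells, 1 with each co-culture, was 0 with each where the brightest probe set or the mean stood for a gene, where only the 2 groups compared were fitted, at an unadjusted p under 0.05 with a 2-fold change, and in the methods' ANOVA with Tukey and paired t-test after Benjamini-Hochberg adjustment. Few of all kept probe sets passed there either (SostKO, rhDKK1 and rhSOST in turn). The shares were 0.177%, 0% and 0.436% with 2 groups and 0.812%, 0.692% and 0.394% with the 2-fold change. They were 0.0412%, 0.00294% and 0.0589% in the adjusted ANOVA and 0%, 0.00295% and 0.00589% in the adjusted paired t-test. At such shares, 0 of 28 does not set the members apart. Without Benjamini-Hochberg adjustment the counts of 28 were 3, 2 and 3 in the methods' ANOVA with Tukey, 4, 3 and 2 in the methods' paired t-test and 8, 5 and 6 in limma. Of all kept probe sets, 7.82%, 8.18% and 9.76% passed in that ANOVA and 8.01%, 7.58% and 7.85% in the paired t-test. In limma the shares of all were 18.9%, 19% and 20.9%. The paired t-test matched arrays 1 and 2 of each group by number and did not use rhSOST 3. Without adjustment, that paired test also called 1 of 28 members between rhDKK1 and rhSOST (shared by LIMS4 and LIMS1) and 1 of 28 between SostKO and rhDKK1 (TLN1). The shares of all probe sets were not counted for these comparisons, so the calls do not set the members apart. In limma, 0% of all kept probe sets passed between co-cultures. rhSOST had 2 calls under the 60th percentile filter and array weights (PARVA added) and with a trend in the spread (both FERMT2), and 4 at an adjusted p under 0.1. The shares of all probe sets called with rhSOST were 6.55%, 7.25%, 4.4% and 8.35% in turn. With the replicate block, the rhDKK1 call was lost (0 calls; limma adjusted p = 0.0611), and the others stood; the block moved the number of calls over all probe sets from 550, 595 and 1355 to 592, 569 and 696. Leaving out 1 array gave 0 to 2 calls with SostKO, 0 to 1 with rhDKK1 and 0 to 1 with rhSOST; a lone remaining array was assumed to vary like the others, and the filter was not repeated. Without SostKO array 1 and rhSOST array 3 together, there were 0, 1 and 2 calls (PTK2 added with rhSOST). The calls among differences between probe sets of one gene ranged from 0 to 3 over fits without 1 array and stayed at 0 against the mean of the other probe sets. The cause of these changes was not tested, beyond the smaller number of arrays or genes in a fit. The poly-A difference changed by less than the SD of the untreated arrays in the fits without 1 array.

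Of 624 values of 36 member results under the alternatives, 582 kept their direction and side of the threshold, 22 lost a call, 5 gained one and 15 changed sign. Every lost call was of FERMT2 209209_s_at, which kept its call in 8, 8 and 13 of 17 alternatives (SostKO, rhDKK1 and rhSOST in turn). All other results were uncalled in the main fit, so most of the 582 were values that stayed uncalled. The changes of sign were all of uncalled values. TLN1 203254_s_at with rhSOST went from 0.12 to -0.070 with the replicate block and without SostKO array 1 and rhSOST array 3 together, and to -0.045 with array weights. Fits without 1 array gave it values from -0.070 to 0.27 with rhSOST and from -0.42 to 0.34 with rhDKK1 (0.017 without untreated array 1). The same fits gave ZYX 200808_s_at values from -0.996 to 0.047 with rhDKK1 and from -0.31 to 0.20 with rhSOST (0.056 without untreated array 2). They gave FERMT1 229545_at values from -0.35 to 0.74 with rhSOST, and FERMT2 214212_x_at values from -0.21 to 0.50 with SostKO and from -0.28 to 0.44 with rhDKK1. These 4 probe sets, those of their genes with the widest spread within groups, were added after their values were seen.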
